A study of Mus musculus with 10 samples.

Results

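The genes of oxidative phosphorylation were examined in 3 macrophage populations sorted from hindlimb muscle of mice 4 weeks old. Members were chosen by name, as every row of the table whose symbol belongs to the subunit families of the respiratory complexes (Nduf, Sdh, Uqcr, Cox4 to Cox8, Atp5) or to the protein genes of the mitochondrial genome (mt-Nd, mt-Co, mt-Cytb, mt-Atp). The rule found 90 of 17001 genes, of which 89 are encoded in the nucleus and 1, *mt-Co1*, in the mitochondrial genome. Other mitochondrially encoded protein genes were not analysed here, so every statement on the mitochondrial side rests on a single gene.

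The study sorted skeletal muscle–resident macrophages (SkMRMs, Folr2-high) from healthy C57BL/10 wild-type (WT) mice, and gal-3+ macrophages (gal-3-high, Folr2-low) and monocyte-derived macrophages (MDMs, CD52+) from C57BL/10ScSn-Dmdmdx/J (mdx) mice, which lack dystrophin in the whole animal and model Duchenne muscular dystrophy. Bulk RNA was sequenced from 3 SkMRM, 4 gal-3+ and 3 MDM libraries, which the labels call biological replicates, each made from 2 ng of total RNA with a stranded low-input kit. The sources used here do not state whether a library held RNA of several mice. SkMRMs came only from WT mice and the others only from mdx mice, so population and genotype cannot be told apart in the comparisons with SkMRMs. The 3 comparisons share libraries, and in bulk RNA fewer cells of a type and less RNA per cell cannot be told apart. Depth ran from 22395027 to 75907638 reads per library (median 30157557). The sort genes followed the labels for *Folr2* (14326 to 14719 normalized counts in SkMRMs, 2278 to 2759 in gal-3+ macrophages, 80.6 to 151.8 in MDMs) and *Cd52* (93.3 to 146.2, 1767 to 2044 and 3523 to 4250), whereas *Lgals3*, which encodes gal-3, overlapped between MDMs (40211 to 51278) and gal-3+ macrophages (40684 to 45826) and was lower in SkMRMs (3907 to 4559). The macrophage genes *Csf1r* and *Adgre1* were at 11264 normalized counts or more in every library.

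Oxidative phosphorylation makes ATP in the inner mitochondrial membrane. Complexes I and II pass electrons to coenzyme Q, complex III passes them on to cytochrome c, and complex IV passes them to oxygen. Complexes I, III and IV pump protons, and complex V, the ATP synthase, uses the return of the protons to make ATP. Complex II is encoded wholly in the nucleus, whereas the others are assembled from subunits of both genomes. In macrophages, the balance of respiration and glycolysis is known to change with activation.

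By role, the 89 nuclear members comprised 78 structural subunits, 7 assembly factors of complex I (Ndufaf) and 4 related genes (*Ndufa4l2*, *Cox7a2l*, *Atp5s*, *Atp5sl*). The structural subunits were 36 of complex I, 4 of complex II, 8 of complex III, 11 of complex IV together with 4 tissue isoforms of it, and 15 of complex V. *Ndufa4* was placed in complex IV, of which its protein is a subunit despite its name. A position in GENCODE M21 (mm10) was found for 88 of the 90 members.

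Nuclear respiratory genes are known to share binding sites of NRF1, of GABPA and other ETS factors, and of YY1 near their start, so the promoter windows of the members, from 250 bases before to 50 bases after the annotated start in RefSeq (GRCm38.p6), were searched on both strands. A window was found for 74 of the 89 nuclear members and for 65 of the 78 structural subunits. The NRF1 motif, a palindrome, was present in 5 of these 65 (7.69%), against 2.15% of the 11087 genes of the table with a window and 1.07% of all 27025 genes with one. The ETS motif, CCGGAAGT, was present in 5 (7.69%), against 8.14% of genes of the table and 4.31% of all genes. The YY1 motif was present in 4 (6.15%), against 1.61% and 0.755%. These are counts of exact matches with no test, and the letters searched are those in capitals below. The sites below were picked by name from subunits whose values are given further on, together with the 4 subunits with a YY1 match. The NRF1 match of *Atp5g2*, whose values are also given, is not shown. Capitals mark the motif as read on the strand of the gene, 5′ to 3′ (ACTTCCGG is the ETS motif on the other strand).
Uqcrc1, NRF1, chr9:108936668-108936697, plus strand: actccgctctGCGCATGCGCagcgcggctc
Atp5k, NRF1, chr5:108434430-108434459, minus strand: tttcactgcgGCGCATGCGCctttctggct
Cox6a1, NRF1, chr5:115349101-115349130, minus strand: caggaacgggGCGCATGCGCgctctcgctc
Cox8a, ETS, chr19:7217604-7217633, minus strand: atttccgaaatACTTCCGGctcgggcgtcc
Cox8a, ETS, chr19:7217567-7217596, minus strand: tcagcgccggaACTTCCGGctggttcggcc
Uqcr11, ETS, chr10:80406869-80406898, minus strand: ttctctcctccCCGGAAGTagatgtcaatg
Ndufs7, YY1, chr10:80249464-80249493, plus strand: gccgaggccAAGATGGCGGCgctggcgggt
Ndufa9, YY1, chr6:126849095-126849124, minus strand: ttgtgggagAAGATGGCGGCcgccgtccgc
Ndufs4, YY1, chr13:114388045-114388074, minus strand: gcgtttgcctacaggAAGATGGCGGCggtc
Ndufs6, YY1, chr13:73328433-73328462, minus strand: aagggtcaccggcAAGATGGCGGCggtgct
The 4 YY1 matches of structural subunits all lay in complex I genes and all began 24 to 35 bases after the annotated start. *Atp5sl*, a nuclear member that is not a subunit, also held YY1 matches, which began 26 bases after and 53 bases before an annotated start. The NRF1 and ETS matches shown began between 162 bases before and 31 bases after the start.

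Nuclear subunits were higher in both mdx populations than in SkMRMs, whereas the step from gal-3+ macrophages to MDMs was smaller, passed the test for 25 of the 78 structural subunits and was close to that of other genes of the same length. *mt-Co1* was lower in gal-3+ macrophages. The reads of the 78 structural subunits together made up 0.321%, 0.321% and 0.347% of all reads in the SkMRM libraries. They made up 0.428%, 0.402%, 0.432% and 0.424% in gal-3+ macrophages, whose libraries are given in the order mdx1, mdx3, mdx4, mdx5. In MDMs (order mdx1, mdx4, mdx5) they made up 0.410%, 0.468% and 0.458%. The SkMRM libraries therefore lay below all 7 mdx libraries, while the ranges of gal-3+ macrophages and MDMs overlapped. The means were 0.330% ± 0.0147 (SD, n = 3), 0.421% ± 0.0136 (SD, n = 4) and 0.446% ± 0.0310 (SD, n = 3). *mt-Co1* alone took 0.332%, 0.378% and 0.329% of reads in SkMRMs, 0.158%, 0.242%, 0.144% and 0.116% in gal-3+ macrophages, and 0.334%, 0.214% and 0.226% in MDMs. The reads of *mt-Co1* were thus about as many as those of all 78 nuclear subunits in SkMRMs (ratio 1.05 ± 0.117, SD, n = 3), and fewer in gal-3+ macrophages (0.394 ± 0.144, SD, n = 4) and MDMs (0.588 ± 0.197, SD, n = 3). The ratio was 0.948 to 1.18 in the SkMRM libraries and 0.273 to 0.814 in the mdx libraries, so these ranges did not overlap. Shares and ratios are descriptions with no test.

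**Figure D1:**
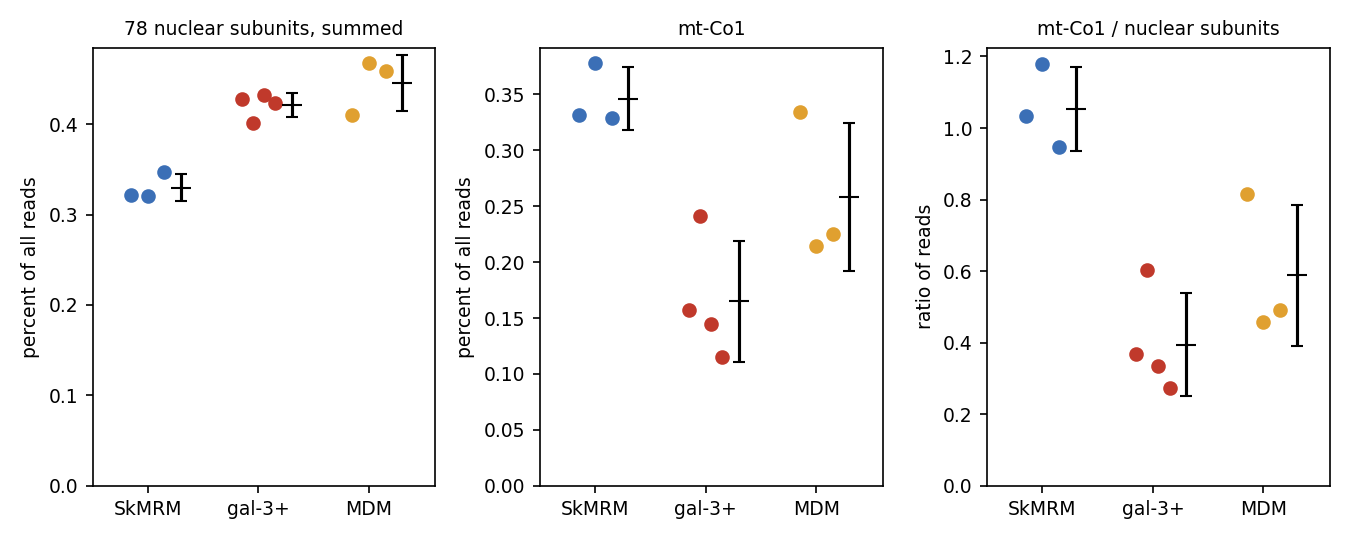
Share of all reads taken by the 78 nuclear structural subunits (left) and by *mt-Co1* (middle), in percent, and the ratio of *mt-Co1* to the summed nuclear subunits (right), for each library of SkMRMs, gal-3+ macrophages and MDMs. Points are libraries and bars show the mean ± SD (n = 3, 4 and 3). SkMRM libraries lie lowest for the nuclear subunits (0.321% to 0.347%) and highest for the ratio (0.948 to 1.18).

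Gene by gene, values are given as normalized counts, that is, reads divided by the deposited size factor of the library. Changes are log2 fold changes on the scale of log2(normalized count + 1), tested with limma (trended variance) over all 10 libraries with adjusted p over all 17001 genes. A gene was called higher or lower at an adjusted p under 0.01. Where 3 values follow each other they are gal-3+ macrophages over SkMRMs, MDMs over SkMRMs and MDMs over gal-3+ macrophages. In gal-3+ macrophages compared with SkMRMs, 52 of the 89 nuclear members were higher and 1 was lower, where 18.0% of all genes were called higher and 17.7% lower. Their median log2 fold change was 0.46, against -0.11 over all genes. In MDMs compared with SkMRMs, 67 were higher and 2 lower (all genes, 22.3% and 23.5%), with a median of 0.72 against -0.17. In MDMs compared with gal-3+ macrophages, 26 were higher and 2 lower (all genes, 13.0% and 14.5%), with a median of 0.25 against 0.03. The count in this last comparison rested on single libraries, as it was 10, 12, 15 and 17 without MDM mdx4, MDM mdx5, gal-3+ mdx5 and gal-3+ mdx1, respectively. Libraries did not overlap, with the first-named population higher, for 64, 75 and 39 nuclear members in the 3 comparisons, against 24.2%, 29.5% and 21.6% of all genes. They did not overlap in the other direction for 1, 3 and 3 members, against 28.1%, 34.9% and 20.8% of all genes.

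The changes were small for most members. At a fold change of at least 2 as well, 11 subunits were higher in the MDM than in the SkMRM libraries (all genes, 8.81%). These were *Ndufa1*, *Ndufa3*, *Ndufb7*, *Ndufs8*, *Sdhb*, *Uqcrfs1*, *Cox5b*, *Cox7a2*, *Atp5c1*, *Atp5e* and *Atp5k*, of which *Ndufa3*, *Ndufb7* and *Atp5c1* were named after their values were seen. *Ndufa4l2* and *Cox6a2* were at least 2-fold lower in that comparison (all genes, 18.0%). In gal-3+ macrophages over SkMRMs, where 5.34% of all genes were at least 2-fold higher and 11.9% at least 2-fold lower, nuclear members rose by at most 0.96 (*Sdhb*), and *Ndufa4l2* was lower. In MDMs over gal-3+ macrophages, where 3.32% of all genes were at least 2-fold higher and 8.19% at least 2-fold lower, the largest called rise was 0.75 (*Ndufaf7* and *Atp5e*), and *Ndufa4l2* was lower. Of the 78 structural subunits, 63 had their lowest mean in SkMRMs and their highest in MDMs, and 10 had their lowest in SkMRMs and their highest in gal-3+ macrophages. The 4 tissue isoforms of complex IV were the only structural subunits whose mean in MDMs was below that in SkMRMs.

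**Figure D2:**
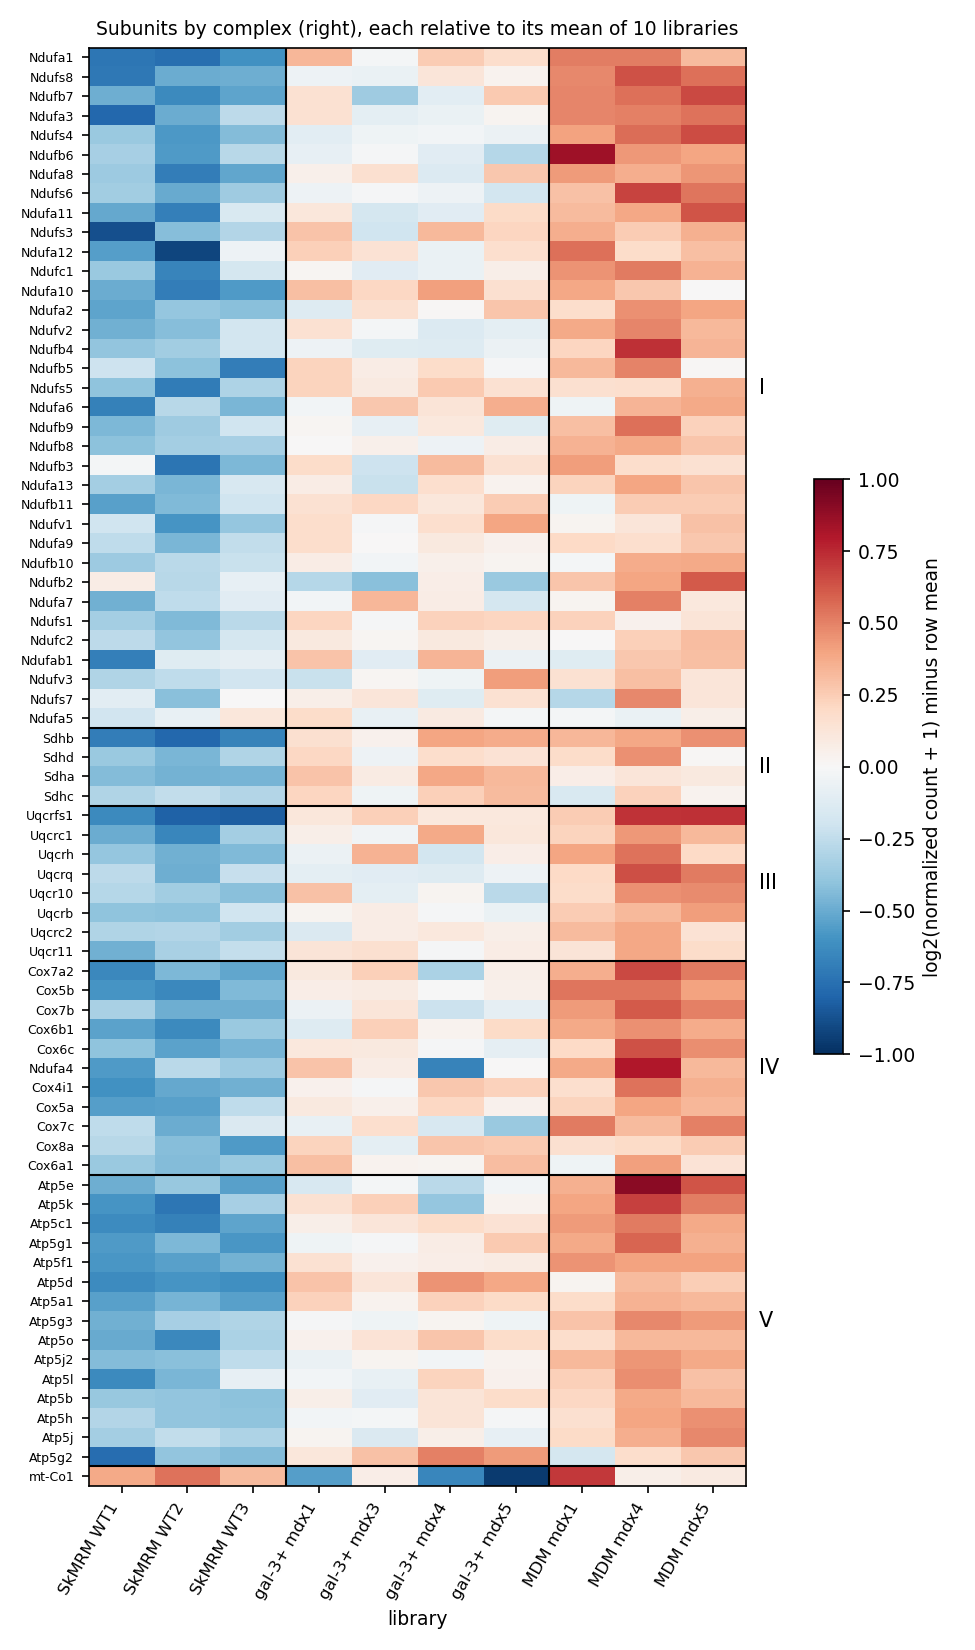
log2(normalized count + 1) of 73 nuclear structural subunits (1 other subunit and the tissue isoforms of complex IV left out) and *mt-Co1* in each of the 10 libraries, minus the mean of the row, colored from blue (lower) to red (higher) and cut at 1 in either direction. Rows are grouped by complex I to V and ordered by the change between MDMs and SkMRMs, and the columns of SkMRMs are mostly blue except for *mt-Co1* in the last row.

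How libraries are scaled shifted every gene at once. Scaling by the reads outside mitochondrial genes and collagens (outside scaling) moved the median of all genes to -0.34, -0.54 and -0.11 in the 3 comparisons, and upper quartile scaling moved it to -0.23 and -0.32 in the comparisons with SkMRMs. The nuclear members called higher then numbered 18, 37 and 6 with outside scaling and 34 in gal-3+ macrophages against SkMRMs at the upper quartile. Measured from the median of all genes, the structural subunits stood at 0.58, 0.91 and 0.24 as deposited and at 0.58, 0.91 and 0.23 with outside scaling. The share of all calls that were higher moved in the same way, from 50.4% to 29.7% with outside scaling, 40.0% at the upper quartile and 63.4% with the trend of values on gene length removed from each library (length trend removed) in gal-3+ macrophages against SkMRMs. It moved from 48.7% to 26.6% with outside scaling and 60.3% with the length trend removed in MDMs against SkMRMs, and from 47.3% to 30.3% with outside scaling in MDMs against gal-3+ macrophages.

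Complex I oxidizes NADH through a core that holds a flavin and a chain of iron-sulfur clusters, to which 7 nuclear subunits belong, inside a shell of accessory subunits. Of its 36 nuclear subunits, 19 were higher in the gal-3+ than in the SkMRM libraries (median 0.43), 29 in the MDM than in the SkMRM libraries (median 0.70) and 11 in the MDM than in the gal-3+ libraries (median 0.22), and the other subunits did not pass the test. Among core subunits, *Ndufs8*, a core subunit with 2 iron-sulfur clusters, was at 632.2, 736.9 and 741 normalized counts in SkMRMs, at 1001, 993.6, 1131 and 1066 in gal-3+ macrophages and at 1450, 1614 and 1519 in MDMs. None of these ranges overlapped, and it rose at each step, with changes of 0.58, 1.12 and 0.54 (adjusted p = 1.5e-04, 1.2e-07 and 3.8e-04). *Ndufs7*, the core subunit with the last cluster of the chain, did not pass the test in any of the 3 comparisons (0.23, 0.28 and 0.05) and its libraries overlapped throughout.

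Among accessory subunits of complex I, *Ndufa1*, a small membrane subunit encoded on the X chromosome, was at 240.3, 234.5 and 260.2 in SkMRMs, 501.5, 390.8, 474.1 and 449.5 in gal-3+ macrophages and 567.6, 567.7 and 494.3 in MDMs. Its log2 fold changes over SkMRMs were 0.88 ± 0.14 (SE, adjusted p = 8.5e-05) and 1.14 ± 0.15 (SE, adjusted p = 7.0e-06). *Ndufa10*, on the matrix side of the membrane arm, followed the same pattern (0.86 and 0.80), with -0.05 between the mdx populations. *Ndufb2* and *Ndufb6* are subunits of the membrane arm. *Ndufb6* was at 199.5, 169.3 and 207.2 in SkMRMs, at 237.1, 249.4, 232.9 and 205.7 in gal-3+ macrophages and at 452.2, 339.4 and 331.1 in MDMs, and MDM libraries lay above all others (0.95 over SkMRMs and 0.68 over gal-3+ macrophages, adjusted p = 5.8e-04 and 0.0076). With the length trend removed, its change over gal-3+ macrophages was 0.39 and not called (adjusted p = 0.106) and that of gal-3+ macrophages over SkMRMs was 0.67 and called (adjusted p = 0.0063), and the former also lost its call with 6 of the 7 mdx libraries left out singly (0.54 without MDM mdx1, adjusted p = 0.0506) and with TMM or upper quartile scaling. *Ndufb2* was higher in the MDM than in the gal-3+ libraries (0.68, adjusted p = 0.0075), a call lost with 6 of the 7 mdx libraries left out singly (0.59 without MDM mdx5, adjusted p = 0.0438), and its change in gal-3+ macrophages over SkMRMs was -0.16 (adjusted p = 0.503). *Ndufa13*, known also as GRIM-19, passed the test in MDMs against SkMRMs (0.62), but not with outside scaling (0.25, adjusted p = 0.0619). *Ndufb6* also lost its call in MDMs over SkMRMs there (0.58, adjusted p = 0.0192). In gal-3+ macrophages over SkMRMs, *Ndufa13* was at 0.34 and not called (adjusted p = 0.0120), but it was called with TMM scaling, edgeR and DESeq2 (0.40, 0.40 and 0.34). *Ndufa5*, a subunit of the matrix arm, did not pass in any comparison (0.10, 0.04 and -0.05).

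The Ndufaf genes build complex I but are not part of it. Of the 7 measured, *Ndufaf3* was higher in the MDM than in the SkMRM libraries (0.96, adjusted p = 0.0093) and *Ndufaf7* was higher in the MDM than in the gal-3+ libraries (0.75, adjusted p = 0.0036), both named after their values were seen. Their summed share of reads was 0.00369% ± 0.000110 (SD, n = 3) in SkMRMs, 0.00368% ± 0.000115 (SD, n = 4) in gal-3+ macrophages and 0.00418% ± 0.000586 (SD, n = 3) in MDMs. The structural subunits of complex I took 0.0959% ± 0.00673, 0.118% ± 0.00416 and 0.123% ± 0.00694 (SD).

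Complex II is succinate dehydrogenase, the enzyme shared by the respiratory chain and the citric acid cycle. All 4 of its genes were higher in the gal-3+ than in the SkMRM libraries, and 3 were higher in the MDM than in the SkMRM libraries. With outside scaling, *Sdhc* (0.23) and *Sdhd* (0.26) lost their call in gal-3+ macrophages over SkMRMs. *Sdha* (0.18) and *Sdhd* (0.22) lost theirs in MDMs over SkMRMs. At the upper quartile, *Sdhc* was not called in gal-3+ macrophages (adjusted p = 0.0104). *Sdha*, the flavoprotein that oxidizes succinate, was at 4134, 4005 and 4037 normalized counts in SkMRMs, at 6774, 5910, 7297 and 6963 in gal-3+ macrophages and at 5838, 6064 and 5958 in MDMs. Its log2 fold changes over SkMRMs were 0.73 ± 0.07 (SE, adjusted p = 4.8e-07) and 0.55 ± 0.08 (SE, adjusted p = 1.6e-05). *Sdhb*, the iron-sulfur subunit, moved most of the 4, from 1324, 1245 and 1352 to 2390, 2213, 2810 and 2776 in gal-3+ macrophages and 2693, 2809 and 2935 in MDMs (0.96 and 1.11, adjusted p = 2.3e-07 and 5.4e-08). The membrane anchors moved less. *Sdhd* changed by 0.50 and 0.59 and *Sdhc* by 0.46 in gal-3+ macrophages, and *Sdhc* in MDMs was at 0.32 with an adjusted p of 0.0230 although its libraries did not overlap with those of SkMRMs. Between MDMs and gal-3+ macrophages the 4 genes lay between -0.17 and 0.15 (adjusted p = 0.0745 to 0.502), with a median of -0.02. With outside scaling, *Sdha* was at -0.31 there and called lower (adjusted p = 0.0031). The medians of the other complexes in that comparison were 0.22 to 0.41, and the difference was not tested.

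Complex III receives electrons from coenzyme Q. Of its 8 nuclear members, 6, 8 and 3 were higher in the 3 comparisons (medians 0.39, 0.75 and 0.33). *Uqcrfs1*, the Rieske iron-sulfur protein, had the largest rise among the 89 nuclear members in MDMs over SkMRMs. It was at 961.1, 850.3 and 843.2 in SkMRMs, at 1618, 1763, 1608 and 1609 in gal-3+ macrophages and at 1780, 2471 and 2477 in MDMs, and no ranges overlapped. The changes were 0.90 ± 0.11, 1.33 ± 0.12 and 0.43 ± 0.11 (SE, adjusted p = 4.6e-06, 6.1e-08 and 0.0060), of which the last lost its call without MDM mdx4 or mdx5 (0.35 each, adjusted p = 0.0432 and 0.0436), without gal-3+ mdx1, mdx4 or mdx5 (0.42 each) and with outside scaling (0.29). *Uqcrc1*, a core protein on the matrix side, was at 2545, 2286 and 2832, at 3735, 3513, 4662 and 3875 and at 4196, 4854 and 4491 in the 3 populations. It was higher in both mdx populations than in SkMRMs (0.62 and 0.82, adjusted p = 6.4e-05 and 4.2e-06), and its difference between them was 0.20 (adjusted p = 0.121). *Uqcrq*, a small subunit beside cytochrome b, was instead higher in MDMs than in either other population (0.78 and 0.56), with 0.23 in gal-3+ macrophages over SkMRMs (adjusted p = 0.0711). *Uqcrb*, a small subunit on the matrix side, was higher in both mdx populations than in SkMRMs (0.34 and 0.67) and in MDMs than in gal-3+ libraries (0.33). The last was 0.11 with the length trend removed (adjusted p = 0.292), and the first 0.11 with outside scaling (adjusted p = 0.296). *Uqcrc2*, the other core protein, and *Uqcr11*, a small subunit, were higher in gal-3+ macrophages (0.34 and 0.44) and in MDMs (0.60 and 0.58) than in SkMRMs. With outside scaling these were 0.11 and 0.20 in gal-3+ macrophages and 0.23 and 0.21 in MDMs, none called, and in gal-3+ macrophages both also lost their call without SkMRM WT1 or WT2 (adjusted p = 0.0139 to 0.0308). *Cyc1*, cytochrome c1, belongs to complex III but not to the symbols of the rule, and it rose at each step as well (0.45, 0.92 and 0.47).

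Complex IV passes electrons to oxygen at a core encoded in the mitochondrial genome, to which *mt-Co1* belongs, surrounded by nuclear subunits. Of its 11 broadly expressed nuclear subunits, 9, 11 and 4 were higher in the 3 comparisons (medians 0.56, 0.90 and 0.41). *Cox5b*, the zinc-binding subunit, was at 1481, 1426 and 1638 in SkMRMs, at 2335, 2358, 2219 and 2309 in gal-3+ macrophages and at 3230, 3223 and 2942 in MDMs. The 3 populations did not overlap, and the changes were 0.61 ± 0.08, 1.05 ± 0.08 and 0.44 ± 0.08 (SE, adjusted p = 7.5e-06, 1.4e-08 and 3.1e-04). *Cox5a*, a regulatory subunit, was at 793.2, 795.2 and 973.8, at 1238, 1199, 1340 and 1196 and at 1352, 1525 and 1458. It was higher in both mdx populations than in SkMRMs (0.55 and 0.76, adjusted p = 2.8e-04 and 1.2e-05), and between them it did not pass the test (0.22, adjusted p = 0.0997) although their libraries did not overlap. With outside scaling, the change of *Cox5a* in gal-3+ macrophages over SkMRMs was 0.31 and not called (adjusted p = 0.0187). *Ndufa4* was at 286.9, 353.3 and 331.7, at 519.3, 448.1, 267.8 and 428 and at 553.4, 741.2 and 533.1. It was higher in the MDM than in the SkMRM libraries (0.90 ± 0.21, SE, adjusted p = 0.0018). *Ndufa4* lost this call without SkMRM WT1 (0.81, adjusted p = 0.0102), without MDM mdx4 (0.75, adjusted p = 0.0147) and with outside scaling (0.53, adjusted p = 0.0445). In gal-3+ macrophages, where library mdx4 lay below all SkMRM libraries, its change was 0.32 ± 0.20 (SE, adjusted p = 0.194).

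The most abundant subunits of complex IV by normalized count, *Cox6c* and *Cox4i1*, the broadly expressed isoform of subunit 4, rose by 0.49 and 0.66 in gal-3+ macrophages and by 0.90 and 0.89 in MDMs over SkMRMs. *Cox7b*, *Cox7a2* and *Cox6b1* followed, with 0.37, 0.56 and 0.60 in gal-3+ macrophages and 0.95, 1.05 and 0.92 in MDMs. With outside scaling, *Cox7b*, *Cox7a2*, *Cox6b1* and *Cox6c* in gal-3+ macrophages over SkMRMs were at 0.14, 0.33, 0.36 and 0.26, and none was called. *Cox6a1* and *Cox8a* were higher by 0.56 and 0.59 in gal-3+ macrophages and by 0.56 and 0.62 in MDMs, and between the mdx populations *Cox8a* was at 0.04 (adjusted p = 0.810). *Cox7c* was higher in the MDM than in the SkMRM libraries and gal-3+ macrophages (0.75 and 0.56), with 0.19 between the latter (adjusted p = 0.260).

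Complex V consists of the catalytic F1 head and the membrane-bound Fo part with its stalks. Of its 15 members, 13, 15 and 7 were higher in the 3 comparisons (medians 0.56, 0.77 and 0.32). *Atp5a1*, the alpha subunit of the head, had the highest level per kb of exon among the 77 nuclear subunits with a length in each population (3065, 4935 and 5338 normalized counts per kb). Its normalized counts were 9433, 9958 and 9434 in SkMRMs, 16085, 14086, 16085 and 15633 in gal-3+ macrophages and 15577, 17490 and 17132 in MDMs. The SkMRM libraries lay below all others, with changes of 0.69 ± 0.07 and 0.80 ± 0.08 (SE, adjusted p = 5.0e-07 and 1.1e-07). *Atp5b*, the catalytic beta subunit, lay between 7551 and 7700 in SkMRMs, between 9260 and 11397 in gal-3+ macrophages and between 11547 and 13041 in MDMs. No ranges overlapped, and the changes over SkMRMs were 0.46 and 0.70. The first was 0.23 with outside scaling and not called (adjusted p = 0.0199). *Atp5d*, the delta subunit of the central stalk, was at 1488, 1529 and 1506 in SkMRMs, 2814, 2503, 3148 and 3015 in gal-3+ macrophages and 2356, 2874 and 2736 in MDMs. It was higher in both mdx populations than in SkMRMs (0.92 and 0.81, adjusted p = 3.8e-07 and 2.4e-06), and the mdx populations overlapped (-0.11, adjusted p = 0.362). *Atp5e*, the epsilon subunit of the same stalk, was highest in MDMs at 713.1, 1041 and 861.8, against 396.6, 427.1 and 383 in SkMRMs and 498.3, 549.5, 462.8 and 547.9 in gal-3+ macrophages. Its changes were 0.35 (adjusted p = 0.0460), 1.10 (adjusted p = 7.8e-06) and 0.75 (adjusted p = 4.5e-04).

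The c ring of Fo is encoded by 3 genes whose mature proteins are identical. *Atp5g1* and *Atp5g3* were higher in the MDM than in the SkMRM libraries by 0.97 and 0.77. They were also higher in the gal-3+ than in the SkMRM libraries, by 0.60 and 0.35. With outside scaling these last changes were 0.37 and 0.12, and neither was called. *Atp5g3* also lost this call at the upper quartile and without SkMRM WT1 or WT2 or gal-3+ mdx1 or mdx4. *Atp5g2* was at 426.9, 550.6 and 535.6 in SkMRMs, 786, 886.9, 1026 and 975 in gal-3+ macrophages and 640.4, 819.1 and 872.4 in MDMs, with 0.87 and 0.62 over SkMRMs and -0.25 between the mdx populations (adjusted p = 0.177). Its change in MDMs over SkMRMs lost its call with outside scaling (0.25, adjusted p = 0.165) and at the upper quartile (0.47, adjusted p = 0.0127). The same call was lost without SkMRM WT1, MDM mdx4 or MDM mdx5 (adjusted p = 0.0109 to 0.0144). *Atp5k*, a subunit of the membrane part, rose by 0.56 and 1.08 over SkMRMs. The first change was 0.33 with outside scaling (adjusted p = 0.106) and 0.44 at the upper quartile (adjusted p = 0.0304), and was not called in either. It also lost its call with only SkMRMs and gal-3+ macrophages in the fit (adjusted p = 0.0158). Leaving out any single library other than SkMRM WT3 or gal-3+ mdx4 removed the call as well (0.47 without SkMRM WT2, adjusted p = 0.0447). *Atp5j*, a stalk subunit, was higher in MDMs than in both others (0.64 and 0.38), with 0.26 in gal-3+ macrophages over SkMRMs (adjusted p = 0.0159). Both calls in MDMs were lost with outside scaling (0.27 and 0.24, adjusted p = 0.0194 and 0.0374). The call over gal-3+ macrophages was also lost without MDM mdx5 (0.31, adjusted p = 0.0157). *Usmg5* and *2010107E04Rik*, late-found subunits of the ATP synthase outside the symbols of the rule, were higher in the MDM than in the SkMRM libraries by 1.23 and 1.02 and than in gal-3+ macrophages by 0.95 and 0.45, and only *2010107E04Rik* passed the test in gal-3+ macrophages over SkMRMs (0.57).

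**Figure D3:**
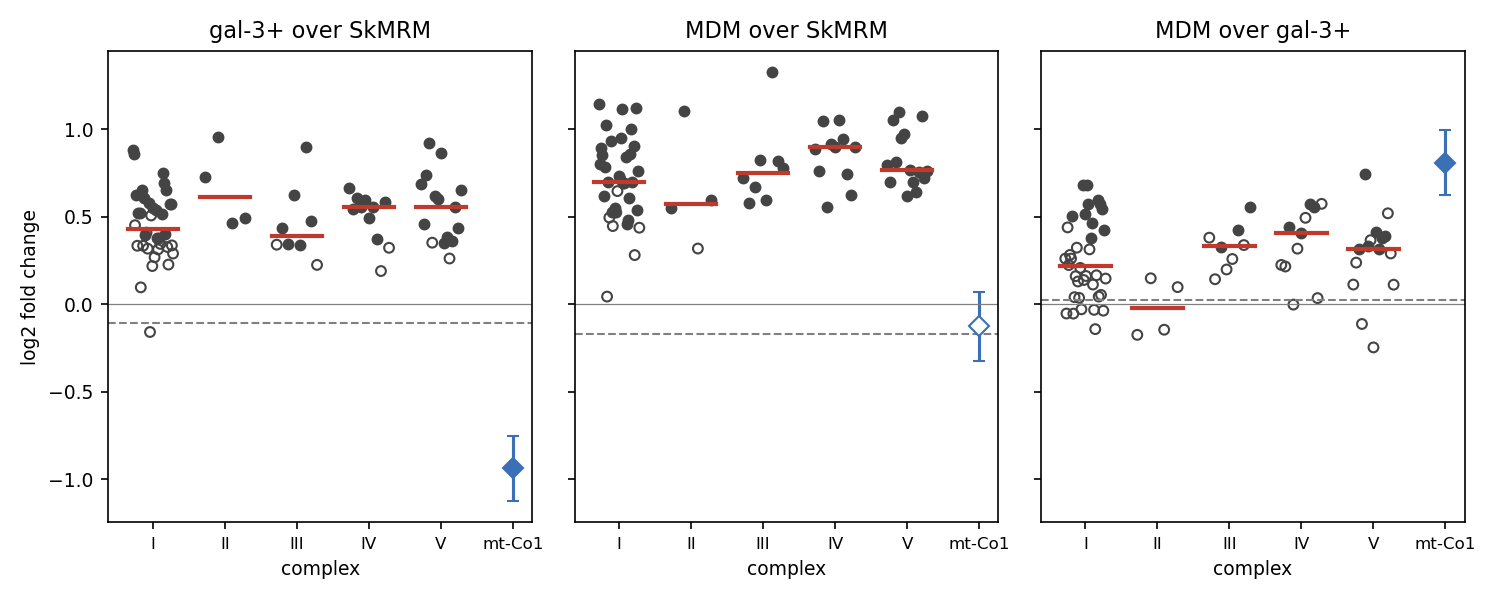
log2 fold change of 74 nuclear structural subunits by complex (circles, filled at an adjusted p under 0.01) with the median of each complex (red bar), and of *mt-Co1* (diamond, ± SE, filled at an adjusted p under 0.01), in the 3 comparisons. The solid line is at 0 and the dashed line is the median of all 17001 genes. In gal-3+ macrophages over SkMRMs the medians of the complexes lie between 0.39 and 0.61 and *mt-Co1* at -0.94.

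The mitochondrially encoded *mt-Co1*, the catalytic subunit of complex IV (chromosome M, 5328 to 6872, plus strand), was lower in gal-3+ macrophages, in contrast to its nuclear partners. It was at 94169, 105786 and 90054 normalized counts in SkMRMs, at 49363, 76001, 46145 and 37263 in gal-3+ macrophages and at 118300, 75493 and 77322 in MDMs. All gal-3+ libraries lay below all SkMRM libraries, whereas the MDM libraries overlapped both other populations, and gal-3+ mdx3 and MDM mdx1 were the highest of their groups. The log2 fold change in gal-3+ macrophages over SkMRMs was -0.94 ± 0.19 (SE, adjusted p = 5.5e-04), while the nuclear subunits of complex IV had a median of 0.56 in the same comparison. In MDMs over SkMRMs it was -0.13 ± 0.20 (SE, adjusted p = 0.612), and it did not pass the test with any library left out (-0.34 to -0.01) or with outside scaling (-0.50, adjusted p = 0.0430). In MDMs over gal-3+ macrophages it was 0.81 ± 0.19 (SE, adjusted p = 0.0024), and without MDM mdx1 it was 0.60 and no longer passed the test (adjusted p = 0.0218). Relative to the sum of the 11 nuclear subunits of its own complex, *mt-Co1* stood at 7.08 ± 0.806 (SD, n = 3) in SkMRMs, 2.62 ± 0.848 (SD, n = 4) in gal-3+ macrophages and 3.69 ± 1.30 (SD, n = 3) in MDMs. Per kb, it was at 62569, 33782 and 58493 normalized counts, against medians of 497.5, 619.1 and 816.8 over the nuclear subunits. Copies of *mt-Co1* in the nuclear genome, *Gm13340* (97.6% identical over all 1545 bases) and *Gm29216* (99.8% over 483 bases), are rows of the table and were at 0 to 20.6 and 12.3 to 43.5 normalized counts. How reads that fit several genes were assigned is not stated in the sources used here. In all, 23 of 89 members searched had an annotated copy at 95% identity or more over at least 200 bases.

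Of the 4 related genes, *Ndufa4l2* was lower throughout. *Ndufa4l2*, a paralog of *Ndufa4* known as a target of hypoxia signaling and as a marker of pericytes in mouse, was at 365.1, 166.2 and 161.7 in SkMRMs, 96.4, 42.7, 62.6 and 81.9 in gal-3+ macrophages and 11.1, 15.3 and 11.7 in MDMs. No ranges overlapped, and it was lower in all 3 comparisons (log2 fold change -1.64, -3.99 and -2.34, adjusted p = 0.0039, 9.1e-07 and 3.1e-04). The change in gal-3+ macrophages over SkMRMs lost its call without SkMRM WT1 (-1.26, adjusted p = 0.0470), without gal-3+ mdx3 or mdx4 (-1.43 and -1.61) and with the length trend removed (-1.39, adjusted p = 0.0135). The list of endothelial and pericyte markers held 15 genes, none at 0 in all libraries of a population. It took 0.0285% to 0.0654% of reads in SkMRMs, 0.0532% to 0.0718% in gal-3+ macrophages and 0.0185% to 0.0220% in MDMs. Of the 15, 1 was higher in gal-3+ macrophages over SkMRMs (all genes, 18.0%). In MDMs, 8 were lower than in SkMRMs (all genes, 23.5%) and 13 lower than in gal-3+ macrophages (all genes, 14.5%). The part of this list in the values of *Ndufa4l2* was not tested. *Cox7a2l*, which takes part in joining complexes III and IV into supercomplexes, was at 1362, 1481 and 1261, at 1689, 1746, 2182 and 2164 and at 1365, 1331 and 1179. It was higher in the gal-3+ than in the SkMRM libraries (0.50, adjusted p = 0.0012) and lower in the MDM than in the gal-3+ libraries (-0.58, adjusted p = 4.4e-04), and these ranges did not overlap. Its change in MDMs over SkMRMs was -0.08 (adjusted p = 0.565). With outside scaling, *Cox7a2l* was at 0.27 and not called in gal-3+ macrophages over SkMRMs (adjusted p = 0.0415). In MDMs over SkMRMs it was then at -0.45 and called lower (adjusted p = 0.0021). *Atp5s* and *Atp5sl* did not pass the test in any comparison (-1.46 and -0.12 in MDMs over SkMRMs).

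The tissue isoforms of complex IV were at low levels throughout, with means from 8.37 to 55.6 normalized counts. *Cox6a2*, the isoform of heart and skeletal muscle, was at 38.5, 41.9 and 75.8 in SkMRMs, 38.9, 18.7, 39.0 and 40.0 in gal-3+ macrophages and 0, 23.0 and 7.05 in MDMs. The MDM libraries lay below all SkMRM libraries (-3.13 ± 0.88, SE, adjusted p = 0.0059). Without MDM mdx1, the library at 0, the change was -1.87 and not called (adjusted p = 0.0242), and the call was also lost without SkMRM WT1, WT2 or WT3 (adjusted p = 0.0130 to 0.0245), with edgeR (-2.33, adjusted p = 0.0234) and with only SkMRMs and MDMs in the fit (adjusted p = 0.0182). The other muscle isoform, *Cox7a1*, did not pass the test (-1.03, -0.67 and 0.36), and neither did *Cox4i2*, the isoform of lung, or *Cox6b2*, the isoform of testis. The list of 25 skeletal muscle fiber markers, none of which was at 0 in all libraries of a population, took 0.110% to 0.163% of reads in SkMRMs, 0.0895% to 0.104% in gal-3+ macrophages and 0.0523% to 0.0601% in MDMs. Of these markers, 13, 23 and 19 were lower in the 3 comparisons, against 17.7%, 23.5% and 14.5% of all genes. Higher were 1, 1 and 0 of them, against 18.0%, 22.3% and 13.0% of all genes. *Cox6a2* was also lower in MDMs over SkMRMs, and the part of the markers in its values was not tested.

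**Figure D4:**
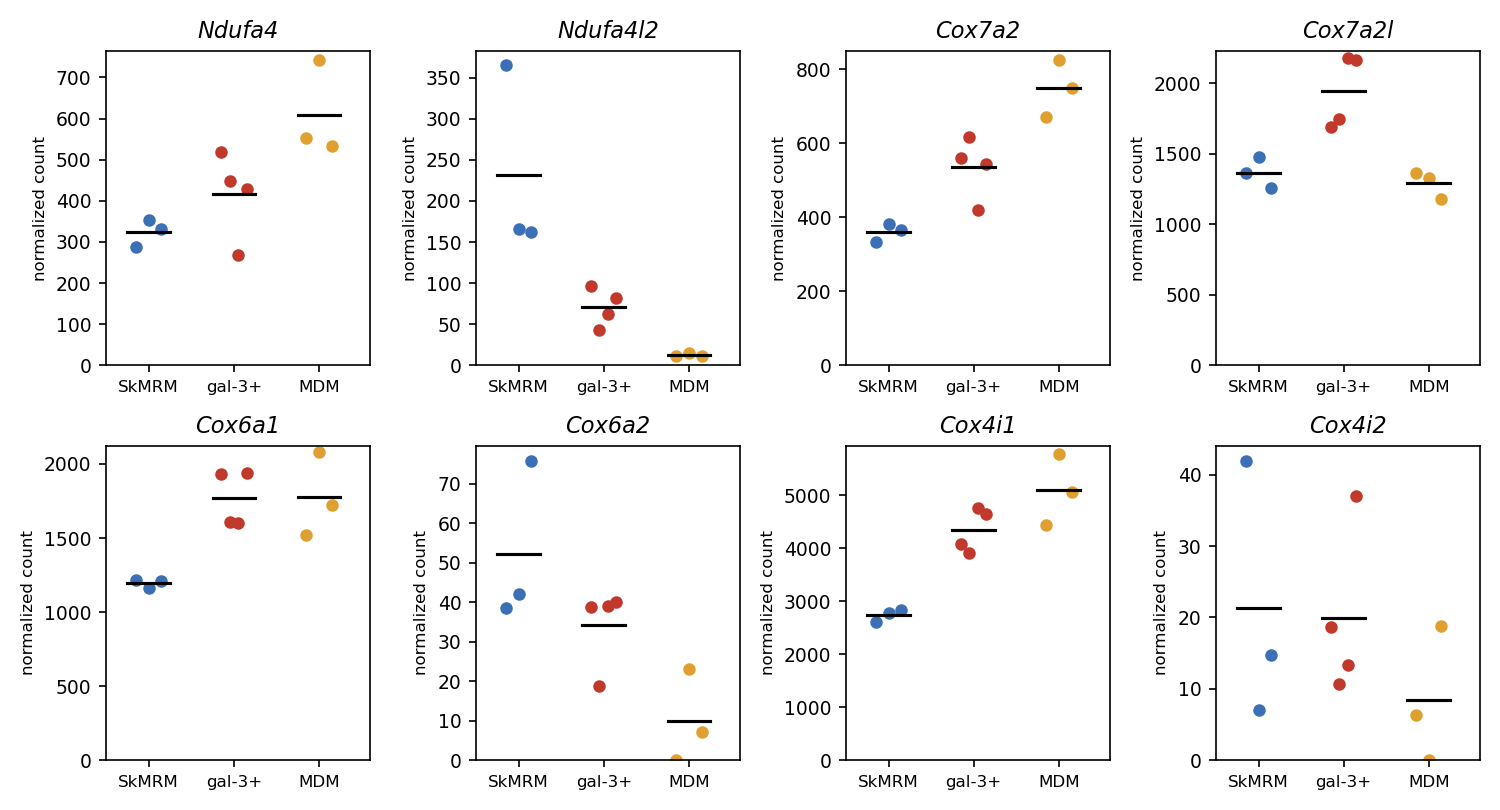
Normalized counts of 4 subunits of complex IV and of a related gene or tissue isoform of each (*Ndufa4* and *Ndufa4l2*, *Cox7a2* and *Cox7a2l*, *Cox6a1* and *Cox6a2*, *Cox4i1* and *Cox4i2*) in each library, with axes from 0 on separate scales. Points are libraries and bars the means (n = 3, 4 and 3). *Ndufa4l2* falls from 161.7 to 365.1 in SkMRMs to 11.1 to 15.3 in MDMs.

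Other genes of the pathway were read from lists, against 18.0%, 22.3% and 13.0% of all genes called higher and 17.7%, 23.5% and 14.5% called lower in the 3 comparisons. In the list of 18 electron carriers and coenzyme Q genes, 3, 5 and 4 were higher (16.7%, 27.8% and 22.2%) and 0, 1 and 1 lower (medians 0.28, 0.26 and 0.25), so that the share called higher was near that of all genes in both comparisons with SkMRMs. *Cycs*, cytochrome c, was at 1032, 1001 and 1396 in SkMRMs, 1820, 1627, 1347 and 1521 in gal-3+ macrophages and 2655, 2947 and 3330 in MDMs, and rose by 0.47, 1.39 and 0.92. *Gpd2*, which feeds electrons from glycerol 3-phosphate into coenzyme Q, rose by 0.52, 1.70 and 1.18. *Adck3*, a coenzyme Q gene, was lower in the MDM than in the gal-3+ libraries (-1.23), while *Coq9* was higher in gal-3+ macrophages (0.68) and *Coq3* in MDMs (1.23) than in SkMRMs. Of 10 carriers, porins and uncoupling genes, 6, 6 and 3 were higher (60%, 60% and 30%) and 0, 2 and 2 lower (medians 0.40, 0.54 and -0.14). *Vdac2*, a porin of the outer membrane, was more than 2-fold higher in both mdx populations than in SkMRMs (1.23 and 1.33), *Vdac1* rose by 0.86 in gal-3+ macrophages, *Vdac3* by 0.47 in MDMs over gal-3+ macrophages and *Ucp2* by 0.68 in gal-3+ macrophages over SkMRMs. The ADP/ATP carriers differed, as *Slc25a5* was higher in the MDM than in the gal-3+ libraries (0.51) and *Slc25a4*, the isoform of muscle and heart, was lower (-0.67). *Ckmt2*, the creatine kinase of muscle mitochondria, was lower in the MDM than in the SkMRM libraries (-3.77).

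Of 17 citric acid cycle genes, 11, 12 and 5 were higher (64.7%, 70.6% and 29.4%) and 2, 2 and 0 lower (medians 0.45, 0.55 and 0.13). *Mdh2*, malate dehydrogenase, rose at each step (0.92, 1.33 and 0.40), and *Idh3a*, of the NAD-linked isocitrate dehydrogenase, by 1.10 in MDMs over SkMRMs and by 0.64 over gal-3+ macrophages. *Pdha1*, of pyruvate dehydrogenase, was higher in the MDM than in the gal-3+ libraries (0.36). The exceptions were *Idh2*, the NADP-linked enzyme, and *Fh1*, fumarase, the step after succinate dehydrogenase. *Fh1* was at 1780, 1479 and 1831 in SkMRMs, 806.2, 956.2, 1098 and 862.9 in gal-3+ macrophages and 970.8, 830.5 and 840.7 in MDMs, a change of -0.87 and -0.94 over SkMRMs. *Idh2* changed by -0.81 and -1.01. For both, every SkMRM library lay above all mdx libraries. Of 21 genes of import, chaperones and outer membrane, 11, 16 and 8 were higher (52.4%, 76.2% and 38.1%) and 0, 0 and 1 lower (medians 0.40, 0.84 and 0.33), among them *Tomm22* (0.94 and 1.15 over SkMRMs), *Tomm70a* (0.70 in gal-3+ macrophages), *Phb2* (0.71 and 1.16) and *Hspe1* (0.62 and 1.26, and 0.65 over gal-3+ macrophages). *Timm23* and *Tomm5* were higher in the MDM than in the gal-3+ libraries (0.79 and 0.77).

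Of 41 assembly factors outside the rule, 5, 7 and 4 were higher (12.2%, 17.1% and 9.76%) and 2, 1 and 3 lower (4.88%, 2.44% and 7.32%), each share below that of all genes (medians 0.16, 0.23 and 0.06). *Tmem126b*, of complex I assembly, fell by 1.64 on the log2 scale in MDMs compared with SkMRMs and by 1.22 compared with gal-3+ macrophages, whereas *Uqcc2*, of complex III assembly, rose by 1.37 and 0.99. *Ttc19*, also of complex III, was higher in the MDM than in the gal-3+ libraries (1.14). Among factors of complex IV, *Coa4* and *Cmc1* were higher in the gal-3+ than in the SkMRM libraries (1.68 and 1.06), *Cox18* was lower (-1.21) and *Cmc1* was also higher in the MDM than in the SkMRM libraries (1.31).

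Of 32 genes that copy and express mitochondrial DNA, 3, 9 and 6 were higher (9.38%, 28.1% and 18.8%) and 4, 2 and 1 lower (12.5%, 6.25% and 3.12%). Both shares were below those of all genes in gal-3+ macrophages over SkMRMs (medians 0.03, 0.31 and 0.30). *Polg2*, the accessory subunit of the mitochondrial DNA polymerase, was at 622.9, 753.2 and 1245 in SkMRMs, 121.3, 124.0, 146.7 and 119.9 in gal-3+ macrophages and 128.1, 107.2 and 111.5 in MDMs, and was lower in both mdx populations (-2.70 and -2.85, adjusted p = 4.6e-08 and 3.5e-08). *Peo1*, the helicase, was lower in the MDM than in the SkMRM libraries (-0.93). *Mterf3* and *Mterf2*, of a family that acts on mitochondrial transcription and translation, were lower in the gal-3+ than in the SkMRM libraries (-0.84 and -2.16). In MDMs over gal-3+ macrophages, *Mterf3* and *Fastkd1* were higher (0.86 and 0.90) and *Mterf4* lower (-1.33), and *Fastkd1*, of a family that acts on mitochondrial RNA, was also higher in the MDM than in the SkMRM libraries (1.34). Of 15 regulators of respiratory genes, 2, 3 and 6 were higher (13.3%, 20% and 40.0%) and 3, 2 and 1 lower (20%, 13.3% and 6.67%), near the shares of all genes in gal-3+ macrophages over SkMRMs and, for those higher, in MDMs over SkMRMs (medians -0.07, 0.23 and 0.19). *Ppargc1b*, a coactivator of mitochondrial genes, went against the subunits, at 652.0, 618.9 and 589.1 in SkMRMs, 339.0, 273.4, 343.7 and 244.7 in gal-3+ macrophages and 169.2, 136.5 and 105.7 in MDMs. It was lower at each step (log2 fold change -1.06, -2.19 and -1.14), with no overlap between populations. *Hif1a*, which directs the response to low oxygen, rose by 1.16, 2.44 and 1.29, while *Ndufa4l2* fell. *Nfe2l2* was higher in both mdx populations than in SkMRMs (1.77 and 1.71), and *Gabpb1* was higher in the MDM than in the gal-3+ libraries (0.67).

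Changes differed with gene length in both comparisons that include gal-3+ macrophages, mainly in the shortest genes. The other deciles had medians from -0.14 to -0.02 in gal-3+ macrophages over SkMRMs and from -0.10 to 0.14 in MDMs over gal-3+ macrophages. In MDMs over SkMRMs, all deciles lay between -0.25 and -0.08, with no order by length. In the decile of genes with the shortest exonic length (1117 bases or less), which holds 25 of the 77 structural subunits with a length, the median change of all genes was -0.66 in gal-3+ macrophages over SkMRMs, -0.18 in MDMs over SkMRMs and 0.44 in MDMs over gal-3+ macrophages. With each subunit measured from the median of its own length decile, the median of the subunits was 0.66 and 0.88 in the comparisons with SkMRMs, where 75 and 73 of 77 lay above their decile. In MDMs over gal-3+ macrophages it was 0.08 in place of 0.26, with 47 of 77 above their decile.

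**Figure D5:**
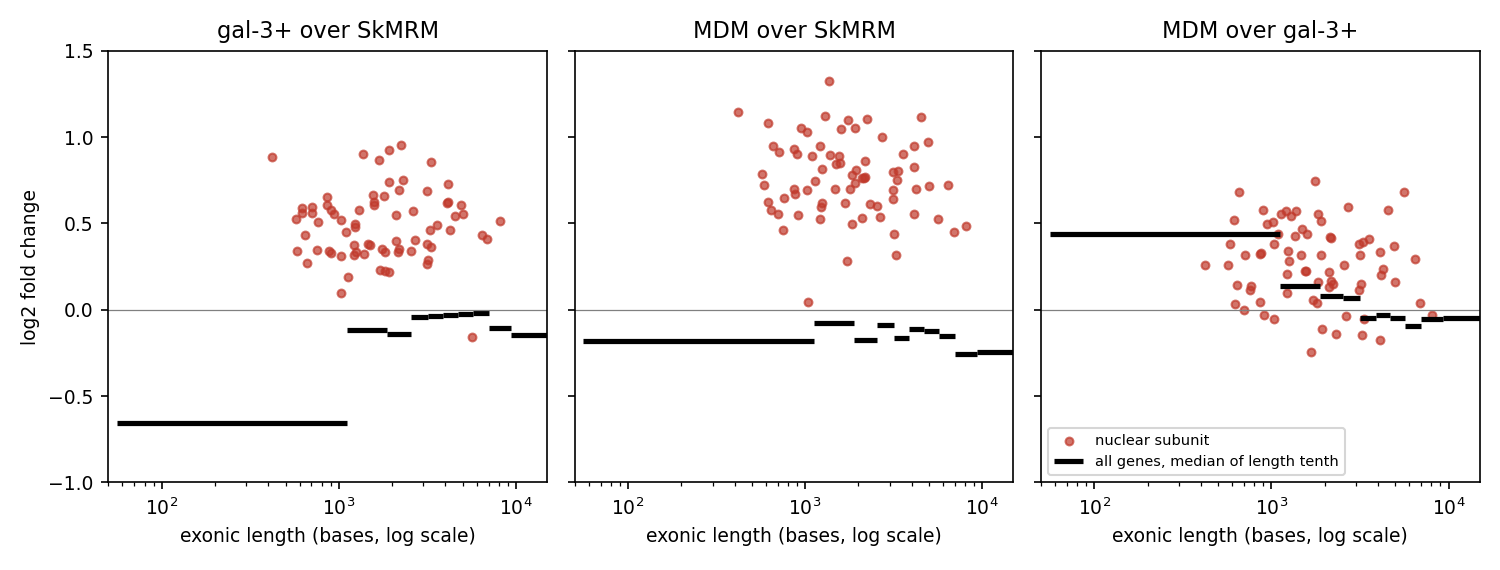
log2 fold change of the nuclear structural subunits (red points, tissue isoforms left out) against exonic length in bases on a log axis, with the median of all genes in each decile of length (black bars), in the 3 comparisons. Subunits lie above the bars in both comparisons with SkMRMs and about the bars in MDMs over gal-3+ macrophages, where the shortest decile has a median of 0.44.

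Other RNA differed between the libraries as well. Beside the counts below, 18.0%, 22.3% and 13.0% of all genes were called higher and 17.7%, 23.5% and 14.5% lower in the 3 comparisons. *Col1a1*, *Col1a2* and *Col3a1* took 2.01% to 4.75% of reads in SkMRMs and 0.177% to 0.262% in the mdx libraries. Of 16 fibroblast, fibro/adipogenic progenitor and tenocyte markers, none of them at 0 in all libraries of a population, 14, 11 and 3 were lower and 0, 1 and 2 higher. Their summed share was 2.28% to 5.18% in SkMRMs, 0.225% to 0.319% in gal-3+ macrophages and 0.250% to 0.288% in MDMs, with *Fmod*, *Kera* and *Mkx* changing most over SkMRMs and *Pi16* higher in the MDM than in the gal-3+ libraries (2.39). With the collagens left out of the total, *mt-Co1* took 0.358%, 0.165% and 0.259% of reads on average in the 3 populations. Of 10 neutrophil, lymphocyte and erythroid markers, 1, 2 and 1 were higher (10%, 20% and 10%, below the shares of all genes) and 0 lower. The genes called were *Csf3r* over SkMRMs (2.89 and 3.15) and *S100a8* in MDMs (4.24 over SkMRMs and 2.33 over gal-3+ macrophages). The 10 markers took 0.00238% to 0.00288%, 0.01005% to 0.0143% and 0.0112% to 0.0129% of reads. Of 4 nuclear-retained RNAs, 1, 2 and 1 were higher and 1, 0 and 0 lower (*Rmrp* higher by 1.65 and 2.18 and *Rpph1* by 1.23 over SkMRMs, *Kcnq1ot1* at -1.47 in gal-3+ macrophages over SkMRMs and 1.38 in MDMs over gal-3+ macrophages). Of 10 macrophage genes, 9, 5 and 1 were higher and 0, 1 and 5 lower (shares 0.945% to 1.00%, 1.31% to 1.58% and 1.16% to 1.34%). The part of these differences in the values of the subunits was not tested.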

How the data were processed

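RNA of 3 SkMRM, 4 gal-3+ and 3 MDM libraries was sequenced by the authors, mapped to mm10 with TopHat2 2.0.14, counted per gene with HTSeq 1.99.2 and normalized with DESeq2 1.28.1. The authors deposited a signal in the form of read counts that a size factor of each library had scaled. Column names give the population and a number (WT1 to WT3, mdx1, mdx3, mdx4, mdx5) that is not the number of the sample titles, so columns were matched to populations only. Columns of the authors' own comparisons (fold changes and p-values) were not used. Division by the step between values gave whole reads, within 0.001, for 100% of values, with 22395027 to 75907638 reads per library, and errors between libraries include the error of counting at these depths.

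In R 4.3.3, limma 3.58.1 was run on log2(normalized count + 1) over all 10 libraries, adjusted by Benjamini and Hochberg over 17001 genes, with thresholds of 0.01 and, where stated, 2-fold. The table holds no gene under a minimum of 10 in 3 libraries. Positions and exonic lengths (the union of exons) came from GENCODE M21, and 666 genes had no length. The procedure was tested on simulated data. Members, lists and alternatives were chosen with earlier results of these data known. Named are the given markers (*Ndufa4*, *Cox5a*, *Uqcrc1*), *mt-Co1*, the Sdh genes, per complex the most abundant and the most and least changed members with a mean of at least 100, isoform groups, members called against the main direction, and up to 3 genes per list and comparison. Some genes named only by the rule on lists are given in the text for a single comparison. The alternatives tried were a pseudocount of 0.5 or 5, a minimum of 50, TMM, upper quartile and scaling by the reads outside mitochondrial genes and collagens, size factors without *mt-Co1*, count models on the recovered reads (DESeq2 1.42.0, edgeR 4.0.16), a length correction, a threshold of 0.05, only the populations compared, the mdx number as a block, and each library left out. Values of 1 member counted in the totals are not reported here by name.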

Additional observations from a re-analysis of the deposited data

Results flagged for a closer look

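In the 4 gal-3+ libraries, 54 items (named members, shares and ratios) were tested for a library far from the others. Such a value was found for 3 of the 54, all members, which is near the number that chance gives (about 1 in 20). All were in library mdx3. *Uqcrfs1* was at 1763 normalized counts there against 1608 to 1618 in the other libraries, *Cox8a* at 1415 against 1767 to 1831, and *Cox6a2* at 18.7 against 38.9 to 40.0. The same library had the highest *mt-Co1* share of its group (0.242%), and without it the change of *mt-Co1* in gal-3+ macrophages over SkMRMs was -1.13.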

How the results depend on the processing

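Of 158 values recomputed for the counts of nuclear members, *mt-Co1*, its share and its ratio to nuclear subunits, 145 were scored as kept. For *mt-Co1* this meant the same direction and side of the threshold, and for shares and ratios a move within the spread. Counts were scored as kept within a fixed factor of the main count, so 37 in place of 52 (without SkMRM WT2) was kept. Shares with 1 library left out could not move by more than the SD, so they were kept whatever the data. The count of nuclear members higher in the gal-3+ than in the SkMRM libraries (52) dropped to 34 with upper quartile scaling and 18 with scaling by the reads outside mitochondrial genes and collagens, and lay between 37 and 52 with a library left out. That in MDMs over SkMRMs (67) fell to 37 with the latter and lay between 63 and 68 with a library left out. That in MDMs over gal-3+ macrophages (26) fell to 6 with it and lay between 10 and 26 with a library left out. The change of *mt-Co1* in MDMs over gal-3+ macrophages kept its direction but not its call with DESeq2 (0.79, adjusted p = 0.0158) and when the third population was left out of the fit (0.81, adjusted p = 0.0138), and lay between 0.60 and 1.01 with a library left out. With the mdx number as a replicate block, 8 nuclear members were higher in the MDM than in the gal-3+ libraries, against 16 in the same 6 libraries with the numbers not used (a fit added after seeing the data), and *mt-Co1* was at 1.01 in both. The residuals of same-numbered libraries had correlations of -0.028, 0.010 and 0.025, which gives no sign of pairing. Among the values of single members, 3000 kept their call, 148 lost it, 38 gained it and 0 reversed when called. The median of the subunits measured from that of all genes ranged from 0.46 to 0.61, 0.76 to 0.96 and 0.12 to 0.30 in the 3 comparisons over all alternatives. A minimum of 10 removed no gene, so its values repeated the main ones and were kept whatever the data. The planned denominator without collagens and nuclear-retained RNA left out only the collagens. The cause of these differences was not tested. The small number of libraries a population (3 or 4) limits what the test can call.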
